A study of Mus musculus with 6 samples.

Results

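The MLL complex cofactors and the DOT1L pathway were followed here through 9 genes chosen by name: Kmt2a, Men1, Psip1, Wdr5, Dot1l, Mllt1, Mllt3, Mllt10 and Kdm1a. The proteins are chromatin factors reported to sustain leukaemias that express Hox genes and Meis1. Whether the cultures studied here depend on them was not tested. Of these 9 genes, 7 had an array row annotated to that gene alone and are described below, out of 14860 genes tested in all. All 7 had a mean level above the 95th percentile of 718 olfactory receptor genes, a rough background on these arrays. Kmt2a had no such row, and the row that carries the name Wdr5 carries a second gene symbol too, so no level is given for either gene.

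Each culture was primary bone marrow from female C57Bl/6 mice, 12 weeks old and treated with 5-FU (5-fluorouracil, which kills cycling marrow cells), per the labels. All 6 cultures carried MSCV retroviral constructs for Hoxa9 (written HOXA9 or HA9 in the labels) and Meis1, and all grew in DMEM with 15% FCS, IL3, SCF and IL6. In 3 of the cultures the marrow came from miR-155 knockout animals (knockout 1 to 3) and in the other 3 it carried no such deletion (wild type 1 to 3). No array of untransduced marrow was analysed here, so every comparison is between genotypes within cells that express both transgenes, and the labels do not say how many animals were pooled.

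Kmt2a encodes MLL1, a methyltransferase that places methyl groups on lysine 4 of histone H3 at the Hox genes and Meis1. Menin (Men1) binds the N-terminal end of MLL1 and, together with LEDGF (Psip1), a reader of methylated lysine 36 of the same histone, holds it on chromatin, while WDR5 is part of its catalytic core. DOT1L methylates lysine 79 of histone H3 in transcribed genes and is brought there by ENL (Mllt1) or AF9 (Mllt3), readers of acylated histones, and by AF10 (Mllt10). LSD1 (Kdm1a) removes lysine 4 methylation within the CoREST complex. The microRNA that the knockout lacks lowers the mRNAs it pairs with through its seed, bases 2 to 8. Its mature arms, from RefSeq (GRCm38.p6, chr16:84714143-84714165 and chr16:84714182-84714202, plus strand), are shown because they are the deleted item, with the seed in capitals.
mmu-miR-155-5p: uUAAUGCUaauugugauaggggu
mmu-miR-155-3p: cUCCUACCuguuagcauuaac

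In the miR-155 knockout none of the 7 measured cofactors passed the test adjusted over all genes, in either direction. The largest differences were Psip1, 0.20 higher, and Mllt1 and Men1, 0.19 and 0.17 lower on the log2 scale, each with an interval that included 0. Dot1l, Kdm1a, Mllt10 and Mllt3 lay within 1 standard error of no difference. Across the 7 genes the 95% intervals of the log2 difference ran from −0.40 to 0.44, so a difference above 1.36-fold in either direction lay outside every interval. The test was limma with Benjamini-Hochberg adjustment, which called 4 of 14860 genes lower (0.0269%) and 0 higher, and at an unadjusted p under 0.05 it counted 1074 genes (7.23%, made up of 5.44% lower and 1.78% higher) and 0 of the 7. With 3 arrays a group an exact permutation test cannot give a p below 0.1, so no gene was tested that way. RNA came from whole cultures, so fewer cells that use a gene and less RNA per cell cannot be told apart.

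**Figure D1:**
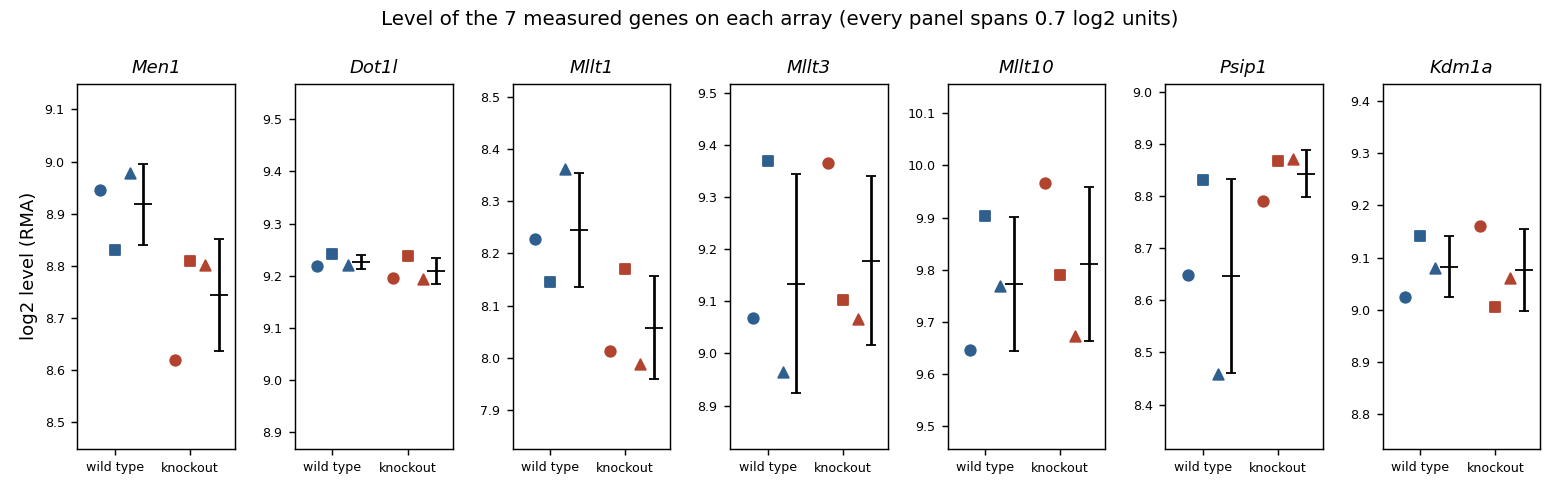
Log2 level (vertical axis) of each measured gene on each array, wild type in blue and knockout in red; circles, squares and triangles are replicates 1, 2 and 3, and black bars are the mean ± SD (n = 3). The axes differ in position but every one spans the same distance, so the tight Dot1l values and the wide Mllt3 values can be set side by side.

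Among the proteins that hold MLL1 on chromatin, menin and LEDGF had opposite signs. Men1 read 8.62, 8.81 and 8.80 in knockout 1 to 3 and 8.95, 8.83 and 8.98 in wild type 1 to 3. Every knockout array lay below every wild-type array, although knockout 2 and wild type 2 were only 0.02 apart, and Men1 was the 1 gene of the 7 whose groups did not overlap, where 13.3% of all genes did not (10.4% with the knockout lower and 2.88% with it higher). The means were 8.74 ± 0.11 and 8.92 ± 0.08 (SD, n = 3 each), a log2 difference of −0.17 with a standard error (SE) of 0.086 and an interval from −0.37 to 0.027 (limma, adjusted p = 0.746). Without knockout 1, the lowest array, the difference was −0.11.

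Psip1 read 8.79, 8.87 and 8.87 in the knockout arrays and 8.65, 8.83 and 8.46 in the wild-type arrays. The groups overlapped, since wild type 2 lay above knockout 1, and the wild-type arrays were spread over 0.37 where the knockout arrays were spread over 0.08. The means were 8.84 ± 0.05 and 8.65 ± 0.19 (SD, n = 3 each), and the knockout stood 0.20 higher on the log2 scale, with an SE of 0.10 (limma, adjusted p = 0.765). Single wild-type arrays moved this value: without wild type 3 it was 0.10 (SE 0.094), and without wild type 2 it was 0.29 (SE 0.093) (limma, adjusted p = 0.999 and 0.472).

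DOT1L itself was the steadiest of the group. Dot1l read 9.20, 9.24 and 9.19 in the knockout and 9.22, 9.24 and 9.22 in the wild type, and all 6 arrays lay within 0.048 of each other. Its SD within genotypes stood at percentile 0.3 of all genes tested. The means were 9.21 ± 0.024 and 9.23 ± 0.013 (SD, n = 3 each), with a log2 difference of −0.018 and an interval from −0.17 to 0.14 (limma, adjusted p = 0.971). The interval is wide beside the arrays' own spread because limma draws each gene's variance towards that of all genes.

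The paralogues that link DOT1L to acylated histones did not share a sign when all 6 arrays were used. Mllt1, which encodes ENL, read 8.01, 8.17 and 7.99 in the knockout and 8.23, 8.15 and 8.36 in the wild type. Wild type 2 fell inside the knockout range, so the groups overlapped through that array. The means were 8.06 ± 0.10 and 8.24 ± 0.11 (SD, n = 3 each), a log2 difference of −0.19 with an SE of 0.090 and an interval from −0.40 to 0.023 (limma, adjusted p = 0.732). Without wild type 2 the difference was −0.24 and without wild type 3 it was −0.13, neither past the adjusted threshold.

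Mllt3, which encodes AF9, read 9.36, 9.10 and 9.07 in the knockout and 9.07, 9.37 and 8.97 in the wild type. A single array in each genotype, knockout 1 and wild type 2, stood apart at the top, and the remaining 4 lay between 8.97 and 9.10. The means were 9.18 ± 0.16 and 9.13 ± 0.21 (SD, n = 3 each), with a log2 difference of 0.044 and an interval from −0.26 to 0.35 (limma, adjusted p = 0.963). The difference of Mllt3 was −0.049 without knockout 1, so its sign depended on single arrays.

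Mllt10, which encodes the DOT1L cofactor AF10, read 9.97, 9.79 and 9.67 in the knockout and 9.65, 9.90 and 9.77 in the wild type. Knockout 1 and wild type 2 were again the highest of their genotypes, and the ranges of the groups nearly coincided. The means were 9.81 ± 0.15 and 9.77 ± 0.13 (SD, n = 3 each), with a log2 difference of 0.038 and an interval from −0.21 to 0.28 (limma, adjusted p = 0.960). The difference of Mllt10 was −0.041 without knockout 1, −0.025 without wild type 1 and 0.11 without knockout 3, so its sign depended on single arrays too.

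Kdm1a, which encodes the demethylase LSD1, read 9.16, 9.01 and 9.06 in the knockout and 9.03, 9.14 and 9.08 in the wild type. The groups overlapped over almost their whole range, with knockout 1 and wild type 2 at the top. The means were 9.08 ± 0.08 and 9.08 ± 0.06 (SD, n = 3 each), and the log2 difference was −0.0071 with an interval from −0.19 to 0.17 (limma, adjusted p = 0.990). Of all genes, 4.8% differed as little.

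**Figure D2:**
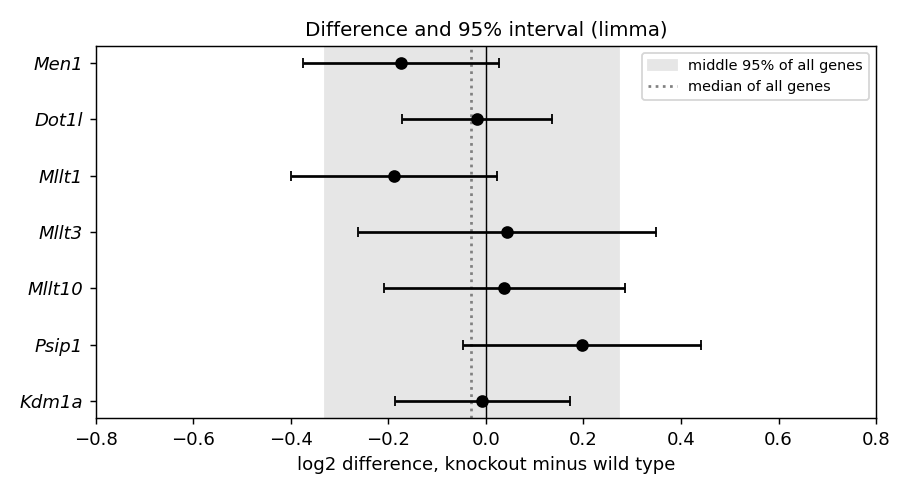
Log2 difference, knockout minus wild type, of the 7 measured genes (points) with the 95% interval from limma (bars); the grey band holds the middle 95% of all genes, from −0.33 to 0.27, and the dotted line is their median, −0.03. All 7 points lie inside the band and all 7 intervals include 0.

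Taken as a list, 4 of the 7 genes lay below 0 and 3 above, with a median log2 difference of −0.0071. The gene at the median, Kdm1a, lay at 0.0050 after median centring and at 0.011 after quantile normalisation, which left 3 below and 4 above. Over all genes 61.0% lay below 0 and the median was −0.03, and the median size of the difference was 0.081 over all genes and 0.044 over the 7. The SD within genotypes ran from percentile 0.3 (Dot1l) and 16.9 (Kdm1a) through 32.6 (Men1) and 39.4 (Mllt1) to 57.8 (Psip1), 59.2 (Mllt10) and 78.0 (Mllt3). So the cofactors ranged from among the steadiest genes on these arrays to more variable than most.

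Much of the variation of the 7 genes lay between arrays of the same genotype. In Mllt3, Mllt10 and Kdm1a the highest array of each genotype was knockout 1 and wild type 2, whereas in Men1 those same arrays were the lowest. These counts, 3 and 1 of 7, stand beside 24.6% and 20.3% of all genes, and this feature was picked out after the values were seen. Over the 6 arrays the Pearson correlation was 0.829 between Mllt3 and Mllt10, 0.808 between Mllt10 and Kdm1a, 0.831 between Men1 and Mllt1, and −0.825 between Mllt1 and Psip1. All 21 pairs ran from −0.825 to 0.831. Genotype means were not removed, so differences between the genotypes enter these values. Since each also rests on the same 6 arrays with a shared normalisation, they are given as a description only.

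**Figure D3:**
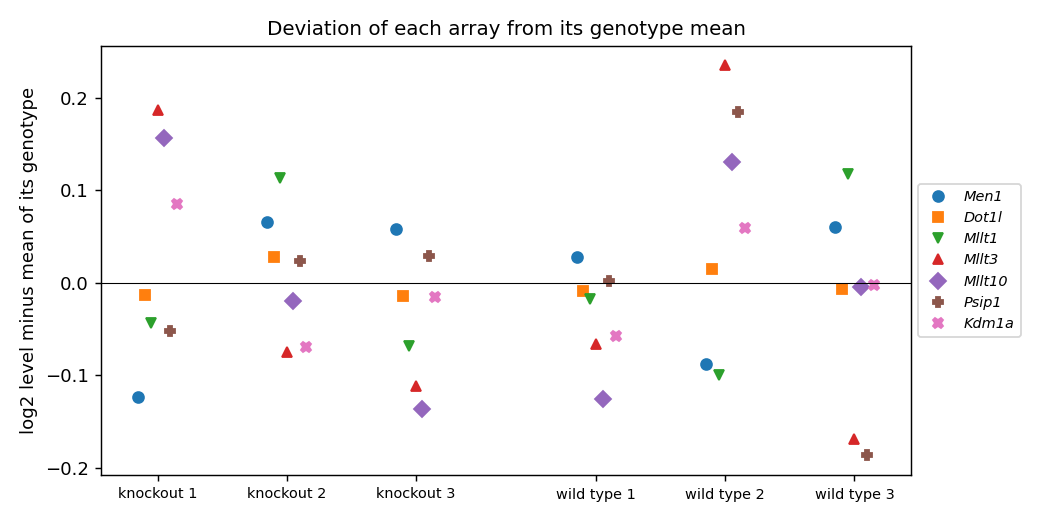
Log2 level on each array minus the mean of its genotype (vertical axis) for the 7 measured genes, which have a colour and marker each. Mllt3, Mllt10 and Kdm1a are highest in knockout 1 and in wild type 2, Men1 is lowest in both, and Dot1l stays near 0 on all 6 arrays.

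The same arrays lay together on the main axis of variation of all genes. Its first principal component (37.21% of the variance) separated wild type 2 and knockouts 1 and 2 from the other 3 arrays. With the sides of that axis as a block in the model the log2 differences became −0.14 for Men1, −0.18 for Mllt1 and 0.16 for Psip1 (limma, adjusted p = 0.582, 0.557 and 0.633), and Mllt3 and Mllt10 turned to −0.043 and −0.029. What the axis reflects was not tested, and the labels name no batch.

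Genes whose level followed one of the cofactors most closely could be named for Dot1l, taken after its values were seen because the intended gene, Kmt2a, had no row. Among 9659 genes with a level above the 95th percentile of olfactory receptor genes, the highest Pearson correlations with Dot1l over the 6 arrays were 0.988 for Hmgxb3, 0.977 for Tomm40l and 0.972 for Atp6v0d1. They describe likeness over a Dot1l range of only 0.048, and with so many genes and so few arrays the closest gene reached 0.97 or more for each of the 7.

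The promoters of the cofactors were compared because MLL1 itself binds unmethylated CpG dinucleotides. RefSeq windows of 300 bases (GRCm38.p6, 250 before to 50 after a start site) were at hand for 8 of the 9 genes, in 13 windows, and not for Psip1. The median window of all 32851 in the table held 7 CpGs, and 10 of the 13 held more. The Dot1l window held 49 and those of Mllt1, Kmt2a, Kdm1a and Wdr5 held 46, 36, 29 and 22. Mllt10 (6, 43 and 7) and Mllt3 (29 and 4) have start sites of both kinds, and the 3 overlapping Men1 windows held 11, 16 and 16.

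Windows are printed for Men1 (chr19:6334729-6335028, plus strand), Mllt1 (chr17:56935339-56935638, minus strand) and Mllt3 (chr4:88033358-88033657, minus strand), with CpG in capitals. Men1 and Mllt1 are shown as the pair with the highest correlation over the 6 arrays, genotype difference included (0.831, against 0.829 for Mllt3 and Mllt10). Mllt3 is shown as the paralogue of Mllt1.
Men1: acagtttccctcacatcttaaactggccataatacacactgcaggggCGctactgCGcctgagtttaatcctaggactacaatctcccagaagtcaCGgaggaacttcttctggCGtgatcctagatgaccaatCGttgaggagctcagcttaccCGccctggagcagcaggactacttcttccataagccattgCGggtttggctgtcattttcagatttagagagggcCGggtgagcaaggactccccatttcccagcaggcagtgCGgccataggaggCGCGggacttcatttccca
Mllt1: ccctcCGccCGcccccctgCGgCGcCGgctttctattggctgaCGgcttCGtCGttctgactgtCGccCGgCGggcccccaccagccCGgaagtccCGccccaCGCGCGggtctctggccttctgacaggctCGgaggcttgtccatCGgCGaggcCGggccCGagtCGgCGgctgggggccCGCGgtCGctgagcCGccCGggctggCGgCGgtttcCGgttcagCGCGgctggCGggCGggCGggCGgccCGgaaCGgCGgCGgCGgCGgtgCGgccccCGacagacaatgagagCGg
Mllt3: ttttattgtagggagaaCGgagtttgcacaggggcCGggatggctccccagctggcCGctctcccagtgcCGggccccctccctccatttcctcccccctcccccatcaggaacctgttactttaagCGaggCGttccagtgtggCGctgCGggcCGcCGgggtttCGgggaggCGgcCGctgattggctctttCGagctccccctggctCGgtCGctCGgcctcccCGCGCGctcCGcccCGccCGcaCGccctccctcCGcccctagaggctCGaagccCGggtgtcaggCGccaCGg
The printed windows of Men1 and Mllt1 held 11 and 46 CpGs, and the other Men1 windows held 16 each. The core letters TGACAG, known as a MEIS motif, were sought on both strands and occurred in 5 of the 13 windows, the 3 overlapping windows of Men1, that of Mllt1 and the second of Mllt3, against 19.2% of all windows. The letters TTTATG, a HOX motif core, occurred in 0 of the 13, against 11.9% of all. A match is a run of letters and not a binding site.

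**Figure D4:**
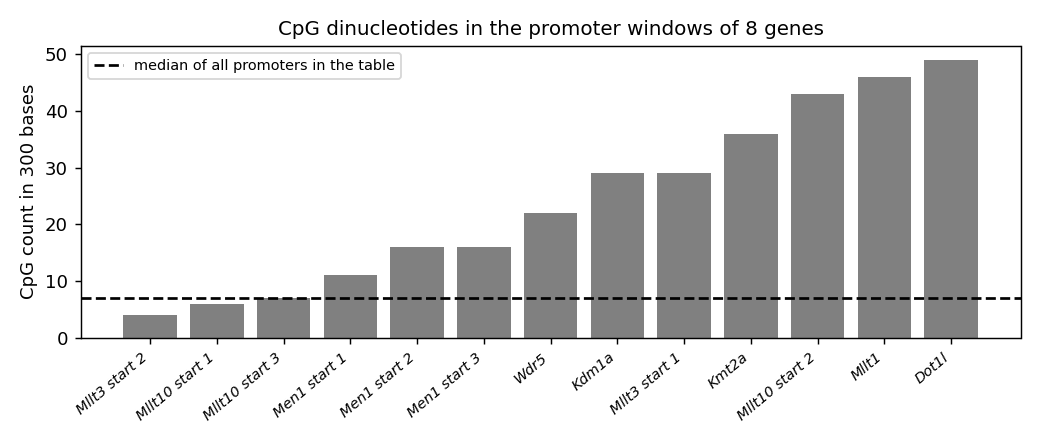
Number of CpG dinucleotides (vertical axis) in each 300-base promoter window of 8 genes, in rising order; the dashed line is the median of all windows in the table, 7. Dot1l and Mllt1 stand highest at 49 and 46, and the second Mllt3 start site lowest at 4.

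Partner genes of these complexes, related chromatin enzymes and reported target genes, written as 7 lists by role, likewise gave no gene past the adjusted threshold. Of 96 listed genes 77 were measured, 19 of them reported target genes, and 0 passed (limma). At an unadjusted p under 0.05 there were 1 lower and 2 higher, 3.90% of the 77 against 7.23% of all genes. Both of the higher genes were reported target genes. The groups did not overlap in 9 of the 77 (11.7%, against 13.3% of all genes), and 3 of the 9 were reported target genes. As in Mllt3, Mllt10 and Kdm1a, knockout 1 and wild type 2 were the highest arrays of their genotypes in 37 of the 77 genes (48.1%, against 24.6% of all genes), and they were the lowest in 5 (6.49%, against 20.3%). Of all genes 66.1% lay above the olfactory receptor percentile, a smaller share than in any of the 7 lists. The pattern was not counted among such genes alone, so whether it is particular to the lists was not tested. The 37 included Ash2l, Kdm6a, Ell2, Ctr9, Hdac2 and Kdm5a, picked out here as examples after their values were seen. They also included the transduced Hoxa9 and Meis1 and the reported target genes Flt3 and Myb.

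The other subunits of the KMT2 and SET1 methyltransferase complexes, 11 of 17 measured, had a median log2 difference of 0.017 and none past an unadjusted p of 0.05. Cxxc1, the CpG-binding subunit of the SET1 complexes, read 9.28, 9.33 and 9.28 in the knockout and 9.37, 9.33 and 9.42 in the wild type, a log2 difference of −0.078 (limma, adjusted p = 0.866). Kmt2b, which encodes the menin-bound relative of MLL1, differed by −0.064, the core subunit Ash2l by 0.078 and Setd1b by −0.066. The super elongation complex and P-TEFb, which release paused RNA polymerase and bind ENL and AF9, had 13 of 14 genes measured and a median of −0.014. Eaf1 differed by −0.13, Ell by −0.11, Aff3 by −0.098 and Ell2 by 0.12, with a lowest adjusted p of 0.817 in the list (limma).

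Partners of DOT1L, the PAF1 complex and the enzymes of histone H2B ubiquitination, a mark that stimulates DOT1L, had 11 of 12 genes measured. Of these 8 lay below 0, where 61.0% of all genes did, and the median was −0.019. Mllt6, which encodes AF17 and is the paralogue of Mllt10, read 7.23, 7.30 and 7.32 in the knockout and 7.50, 7.43 and 7.44 in the wild type. The groups were apart, at 7.28 ± 0.05 and 7.45 ± 0.04 (SD, n = 3 each), and the log2 difference was −0.17 with an SE of 0.069 (limma, unadjusted p = 0.0417, adjusted p = 0.664). It was the 1 partner or target gene lower at that unadjusted level, and after median centring, after quantile normalisation or over all rows there were 0. Rnf40, a subunit of the H2B ubiquitin ligase, read 8.09, 8.30 and 8.17 against 8.33, 8.33 and 8.44, again without overlap, a log2 difference of −0.18 (limma, adjusted p = 0.717). Wdr61, a PAF1 complex subunit, differed by 0.092, and the H2B deubiquitinase Usp22 by −0.058.

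CoREST and the other partners of LSD1 had 11 of 14 genes measured, 9 below 0, and a median of −0.033. Over all genes 61.0% lay below 0 and the median was −0.031. The CoREST scaffold genes did not share a sign: Rcor3 differed by −0.19 and Rcor2 by −0.14, while Rcor1 read 10.73, 10.68 and 10.69 in the knockout against 10.56, 10.65 and 10.63 and differed by 0.092 (limma, adjusted p = 0.846). Gse1 differed by −0.097.

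The H3K4 demethylases and the writers and readers of H3K36 methylation, 5 of 9 measured, had a median of 0.017. Hdgfl2, a relative of Psip1 that reads the same mark, read 8.30, 8.34 and 8.33 in the knockout and 8.42, 8.44 and 8.48 in the wild type. Its groups did not overlap and its log2 difference was −0.12 (limma, adjusted p = 0.769), of opposite sign to Psip1. The demethylases Kdm5b, Kdm5c and Kdm5a differed by 0.091, −0.068 and 0.060. Among 7 of 9 measured MYST and p300 acetyltransferase genes the median was −0.017. Brpf1, a scaffold of the MOZ complex, stood at 8.96 ± 0.05 against 8.83 ± 0.04 (SD, n = 3 each), with no overlap and a log2 difference of 0.13 (limma, adjusted p = 0.768). Meaf6, Kat8 and Ing5 differed by −0.13, 0.10 and 0.049.

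**Figure D5:**
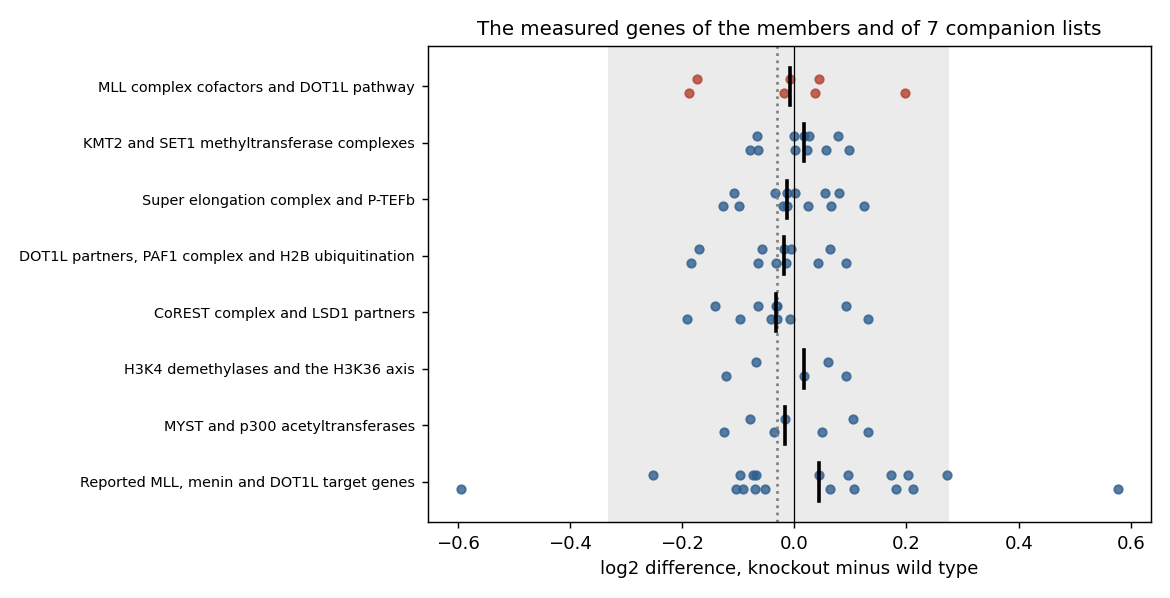
Log2 difference, knockout minus wild type, of the measured cofactors (red) and of the measured genes of 7 companion lists (blue), 1 point a gene, offset vertically for legibility; black ticks are list medians, the grey band holds the middle 95% of all genes and the dotted line is their median. The complexes lie within the band, and the reported target genes spread past it on each side through Hoxa6 at −0.59 and Cdkn2c at 0.58.

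Genes reported as targets of MLL1, menin or DOT1L had 19 of 21 members measured. Their log2 differences ran from −0.59 to 0.58 with a median of 0.044, 10 above 0 and 9 below. Of the 19, 15 lay above the olfactory receptor percentile. The 19 also count Hoxa9 and Meis1, which all 6 cultures carried as constructs. Cdkn2c, which encodes the cell cycle inhibitor p18, read 7.07, 6.94 and 6.73 in the knockout and 6.15, 6.53 and 6.33 in the wild type. All knockout arrays were higher, with means of 6.91 ± 0.17 and 6.34 ± 0.19 (SD, n = 3 each). The log2 difference was 0.58 with an SE of 0.13 (limma, unadjusted p = 0.00241, adjusted p = 0.402). Mef2c, a transcription factor of MLL-fusion leukaemia, stood at 9.50 ± 0.14 and 9.23 ± 0.12 (SD, n = 3 each), without overlap, a log2 difference of 0.27 (limma, unadjusted p = 0.0302, adjusted p = 0.614).

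On the lower side of that list Hoxa10 read 6.09, 6.34 and 6.37 in the knockout and 6.55, 6.32 and 6.68 in the wild type, which overlapped, and differed by −0.25 (limma, adjusted p = 0.732). Hoxa6 differed by −0.59 (limma, adjusted p = 0.717) at levels that in both groups lay below 5.98, the olfactory receptor percentile. The transduced pair differed by −0.074 for Hoxa9 and −0.070 for Meis1, with SEs of 0.071 and 0.080. How much of each level came from the construct and how much from the endogenous gene was not tested.

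Markers of the cell types these cultures could hold are given once, since they touch every comparison above, and none passed the adjusted test. The monocyte and macrophage list, 4 of 6 measured and all 4 above the olfactory receptor percentile, had a summed level of 11.53 to 11.84 in the knockout and 11.91 to 12.11 in the wild type. Its members were unequal: Adgre1 (F4/80) differed by −0.82 (limma, adjusted p = 0.0860), while Cd68, Cx3cr1 and Csf1r differed by −0.14, −0.019 and 0.073 and the median of the 4 was −0.081. The early myeloid list (Kit, Cd34, Mpo, Elane, Spi1, Cebpa and Ptprc) was measured in full, all 7 above that percentile, and its sums overlapped, at 14.83 to 14.93 and 14.82 to 14.85. Within it Mpo and Cd34 were each apart between the groups, with differences of 0.24 and −0.16. Mast cell and basophil sums were 13.64 to 13.86 and 13.64 to 13.77, and eosinophil sums 10.50 to 11.19 and 11.01 to 11.60. Within these overlapping sums single genes differed in both directions: Fcer1a by 0.98, without overlap, and Prss34 by −0.47 in the mast cell and basophil list, and Epx by −0.78, Prg2 by −0.55 and Siglecf by 0.29, the last without overlap, in the eosinophil list. Of the T, NK and B cell, erythroid, and stromal and endothelial markers, 2 of 7, 2 of 4 and 3 of 6 measured genes lay above the percentile, and their sums overlapped. Among them the stromal marker Pdgfrb differed by −0.34 without overlap. Of the erythroid factors, Klf1, below the percentile, differed by −0.34 and Gata1, above it, by 0.11, both without overlap. The part of these cell types in the differences above was not tested. No row named Mir155 was used, so knockout and wild-type labels could not be set against the level of miR-155 here.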

How the data were processed

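RNA of 6 cultures was measured on whole-transcript Affymetrix arrays, 1 array a culture, labelled with the WT Terminal Labeling Kit per the labels' protocols. What was deposited is a table of log2 values that the authors made with RMA (Affymetrix Expression Console), as the submitters' processing notes state. The method subtracts background, aligns the distributions of the arrays and combines probes, which hides any change in RNA content per cell and may shrink small differences. The sources used here give neither version nor settings. Scanner values were not used, so the scale was inferred from the table (0.90 to 13.74, array medians 6.55 to 6.66), with no detection calls. Precision is limited by the number of arrays, with a median standard error of 0.097.

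Rows were named through the platform annotation. Of 23332 rows 14996 had 1 symbol, 1019 had several and 7317 were unnamed here, and for each of 14860 genes the row brightest on average was kept. The wild-type titles share 1 numeral as replicate mark and differ only in a running number over all samples, so replicate numbers there only name arrays. The labels call the experiments independent without naming animals, so the p-values reflect only how these arrays vary, which may be technical.

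The genotypes were compared with limma 3.58.1 (lmFit, eBayes) in R 4.3.3, two-sided, with Benjamini-Hochberg adjustment over all genes, a threshold of 0.05 and no filter, and the fit was tested on simulated data. The 95th percentile of 718 olfactory receptor genes, 5.98, served as a rough background. Of each companion list the 4 genes with the smallest p were named, with Hoxa9 and Meis1, and all 7 measured cofactors. Members and lists were chosen with earlier results of these data known. Alternatives were median centring, quantile normalisation, array weights, a filter on level, all rows, mean rows per gene, a variance trend, robust variance, the principal component block and leaving out each array. Sequences are RefSeq's (GRCm38.p6). Plots used matplotlib 3.10.9 under Python 3.11.15.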

Additional observations from a re-analysis of the deposited data

How the results depend on the processing

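None of the 7 cofactors passed the adjusted threshold under any of the 15 alternative settings. The lowest adjusted p of a cofactor was 0.316, for Psip1 with array weights (limma). None of the 77 partner and target genes passed in a setting that tested it. The filter on level kept only genes above the median level, so some of the 77, Cdkn2c among them, were not tested there. Men1 (−0.22 to −0.11), Dot1l (−0.032 to −0.00077), Mllt1 (−0.24 to −0.13) and Psip1 (0.10 to 0.29) kept their sign in all 15. Mllt3 turned to −0.043 with the principal component block, and with single arrays left out it ran from −0.049 (without knockout 1) to 0.16, being −0.040 without wild type 3. Mllt10 turned to −0.029 with the block, and with single arrays left out it ran from −0.041 (without knockout 1) to 0.11, being −0.025 without wild type 1. Kdm1a turned to 0.0050 with median centring, 0.011 with quantile normalisation, and with single arrays left out it ran from −0.050 to 0.028 (without knockout 2), being 0.00063 without knockout 3 and 0.023 without wild type 2. The cause of these turns was not tested.

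At an unadjusted p under 0.05 there was 1 cofactor with array weights (Psip1) and between 0 and 2 with 1 array left out, Mllt1 without knockout 2 and Mllt1 and Psip1 without wild type 2. Partner and target genes lower at that level (Mllt6 alone in the reported analysis) numbered 0 with median centring, quantile normalisation or all rows, 2 with the filter on level, variance trend or the block, 3 with array weights, and 0 to 2 with 1 array left out. Those higher numbered 5 with array weights, 1 with the filter, which left Cdkn2c untested, 1 with the block, and 1 to 4 with 1 array left out. Over all genes the count lower after adjustment was 2 with median centring, 11 with array weights, 11 with the filter, 0 with all rows, 8 with variance trend, and 0 whichever array was left out, and the count higher was 5, 3 and 1 with array weights, the filter and variance trend, 1 with the block, and 0 to 1 with 1 array left out. Genes higher made up 24.7% of those at an unadjusted p under 0.05, and 35.3% after median centring and 36.6% after quantile normalisation. The median of the 5 measured H3K4 demethylase and H3K36 genes ran from −0.085 to 0.12. No paired analysis was possible because the wild-type titles all carry the same replicate numeral.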
